A study of Homo sapiens with 6 samples.

Results

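The 7 genes CREB3L3, FGF21, ANGPTL4, PDK4, BDH1, ACAT1 and FABP1 stand for ketone body formation and for the fasting response that PPARA and CREB3L3 drive in liver. They were taken by gene name from a table of 62709 genes, and each matched 1 row. The cells were HepG2.2.15, a human hepatoma line labelled wild type, made from HepG2 cells and holding hepatitis B virus DNA, grown in medium with serum and G418. For 3 days they received either YQSHJD (Yinqi Sanhuang Jiedu Decoction, a Chinese herbal medicine given as a dilution of freeze-dried powder, 10% of the medium) or saline, which the treatment protocol calls PBS. Polyadenylated RNA was sequenced from 3 libraries a group, named saline 1 to 3 and YQSHJD 1 to 3. The labels do not say whether the libraries came from separate cultures, so p-values measure the spread between these libraries, which may be technical, and a line in culture is not liver in a fasted body.

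During fasting the liver takes up fatty acids, oxidises them in mitochondria and turns the acetyl-CoA into the ketone bodies acetoacetate and 3-hydroxybutyrate, which other organs burn. PPARA is a nuclear receptor for fatty acids that pairs with RXR and switches on genes of this programme. CREB3L3 (CREB-H) is a transcription factor held in the endoplasmic reticulum membrane of liver and gut cells and freed by the proteases encoded by MBTPS1 and MBTPS2. In mouse liver it acts together with PPARA on the hormone gene Fgf21.

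The 250 bases before the start sites of 3 of these genes are shown because the genes went different ways: CREB3L3 and FABP1 were higher with YQSHJD, and FGF21 was lower. The sequences are those of RefSeq on GRCh38.p14, read 5′ to 3′ along the gene's own strand, and capitals mark AGGTCA, the core to which PPARA and RXR bind, on either strand. The windows are chr19:4153381-4153630 (plus strand) for CREB3L3, chr2:88128063-88128312 (minus strand) for FABP1 and chr19:48755274-48755523 (plus strand) for FGF21.
CREB3L3: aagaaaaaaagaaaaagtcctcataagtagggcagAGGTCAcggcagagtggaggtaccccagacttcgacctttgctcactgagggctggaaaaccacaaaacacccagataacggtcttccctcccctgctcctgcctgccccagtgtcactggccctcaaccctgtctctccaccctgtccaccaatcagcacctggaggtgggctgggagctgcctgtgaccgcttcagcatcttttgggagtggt
FABP1: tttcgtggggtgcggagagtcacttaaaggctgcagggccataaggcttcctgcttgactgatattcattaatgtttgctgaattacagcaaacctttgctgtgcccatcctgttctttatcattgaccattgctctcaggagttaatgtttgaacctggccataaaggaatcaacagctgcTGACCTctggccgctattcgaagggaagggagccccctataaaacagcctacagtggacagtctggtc
FGF21: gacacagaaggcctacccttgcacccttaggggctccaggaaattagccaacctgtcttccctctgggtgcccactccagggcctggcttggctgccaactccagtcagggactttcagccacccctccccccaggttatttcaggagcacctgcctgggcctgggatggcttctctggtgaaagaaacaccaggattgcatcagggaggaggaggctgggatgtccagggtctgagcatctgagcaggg
CREB3L3 held AGGTCA from -215 to -210 relative to its start, and FABP1 held it on the opposite strand from -68 to -63. No AGGTCA was found in the FGF21 window, nor in any window of ANGPTL4, ACAT1 and BDH1, which were higher, or of PDK4. All 7 genes matched the RefSeq promoter table, with 9 windows in all since ACAT1 and BDH1 have a pair each, and 4 of the RefSeq starts are the deposited ones (CREB3L3, FABP1, FGF21 and PDK4). Of the 9 windows, 2 held AGGTCA, against 12.1% of 35116 windows of the same length. The tandem form, AGGTCA repeated after 1 base, was in 0 of the 9 and in 0.0171% of all windows. TGACG, the core bound by CREB-type factors, was on the opposite strand in PDK4 (from -226 to -222) and in 1 ACAT1 window (from -164 to -160), against 21.2% of all windows. The full palindrome TGACGTCA, which contains that core, was in 0 of the 9 and in 1.65% of all. All motifs were searched on both strands and, like the 3 windows printed, were chosen after values and sequences were seen, and a match describes letters, not binding.

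The unit throughout is FPKM, the number of fragments per kilobase of a gene at a common depth, and reads per gene were recovered from it. Libraries held 13370372 to 15615649 reads in genes. All 11 hepatocyte and hepatoma markers passed the filter on low values, and their summed level was 3287 to 3579 FPKM with saline and 4601 to 5492 FPKM with YQSHJD. Much of that sum is ALB, at 940 and 2123 FPKM, and the markers did not move together: 6 were called higher and 1 lower, AHSG, at 368 and 203 FPKM, with 3 and 3 under TPM rescaling. Of all tested genes 23.3% were higher and 18.0% lower, with 7.99% and 39.6% under TPM rescaling. Of 5 leukocyte markers 1 passed, LYZ, with a summed level of 87.6 to 93.5 FPKM and 207.7 to 223.3 FPKM, while PTPRC was listed at 0 in every library. Of 5 fibroblast and stellate markers, summing to 15.03 to 19.46 FPKM with saline and 13.16 to 13.97 FPKM with YQSHJD, DCN and COL3A1 were listed at 0. ACTA2 made up most of that sum, and its log2 difference of -0.28 did not pass (limma adjusted p = 0.0654) but was called under TPM rescaling (adjusted p = 0.00267). PDGFRB had 60, 55 and 52 reads with saline and 9, 21 and 8 with YQSHJD. The 4 endothelial markers summed to 4.876 to 5.408 FPKM with saline and 5.276 to 6.213 FPKM with YQSHJD. VWF made up most of that sum and did not pass (log2 difference -0.06, limma adjusted p = 0.709). PECAM1 was called higher (log2 difference 0.51, limma adjusted p = 0.0129), a call lost without saline 1. It passed the filter only through its YQSHJD values and so had to differ. In bulk RNA, fewer cells of a kind and less RNA per cell cannot be told apart. Reads of mitochondrial genes made up 13.5% to 15.7% of each saline library and 17.6% to 22.4% of each YQSHJD library. Also moving with the groups was the factor between the depth used in the FPKM values and the reads in genes (1.03 to 1.05 with saline, 0.885 to 0.923 with YQSHJD). YQSHJD 1 stood somewhat apart, with correlations of 0.974 and 0.979 with the other YQSHJD libraries, which correlated at 0.989 with each other. The part of these features in the results below was not tested, beyond the values given under other scalings and without YQSHJD 1.

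Of the 7 genes, 5 were higher in every YQSHJD library than in every saline library (CREB3L3, ANGPTL4, ACAT1, FABP1 and BDH1), FGF21 was lower in every one, and PDK4 overlapped. Such a lack of overlap was common, holding for 55.3% of the 10966 genes tested (30.7% with YQSHJD higher) and for 34.8% of the 3019 untested genes with at least 10 reads in at least 3 libraries (13.7% with YQSHJD higher, 21.1% lower). FGF21 reached 10 reads only in its saline libraries, so the share of untested genes is no yardstick for it. A gene was tested with limma on log2(FPKM + 1) if it had at least 1 FPKM in at least 3 libraries. CREB3L3, ANGPTL4, ACAT1 and FABP1 passed that filter, and FGF21, BDH1 and PDK4 did not. The 4 tested genes were called higher at a Benjamini-Hochberg adjusted p under 0.05, a call made for 23.3% of all tested genes, with 18.0% called lower and 41.4% in either direction. Calls made under other settings have their own shares of all tested genes, 7.99% higher and 39.6% lower under TPM rescaling (each library brought to the same sum), 22.3% and 22.0% with a correction for GC content, and 14.5% and 11.1% without saline 1. ANGPTL4, CIDEC, KLB, PEX11A, PPARG, PPARGC1A and PECAM1 entered the test only through YQSHJD values above the filter and so had to differ. FADS2 entered only through its saline values. Calls of these genes support nothing about their lists, and counts of calls in the lists still include the genes listed there. Log2 differences below are YQSHJD minus saline on the log2(FPKM + 1) scale, which understates changes of low genes, and the median over all tested genes was 0.04.

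**Figure D1:**
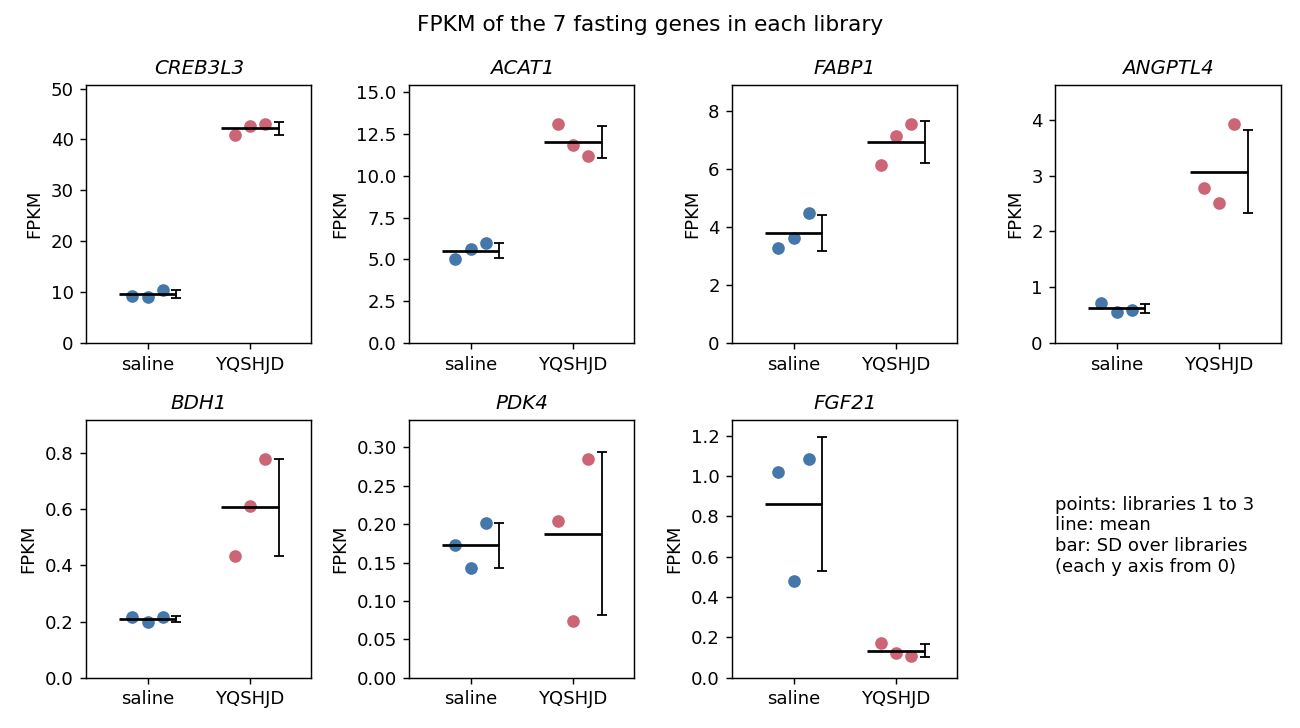
FPKM (y axes, each starting at 0) of the 7 genes in the 3 saline and the 3 YQSHJD libraries, with the mean as a line and the SD as a bar. The YQSHJD points lie above all saline points for CREB3L3, ACAT1, FABP1, ANGPTL4 and BDH1, below them for FGF21, and on both sides of them for PDK4.

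CREB3L3 (ENSG00000060566, chromosome 19, positions 4153631 to 4173054 in the deposited table) was the most abundant of the 7 in both groups. It measured 9.27, 9.06 and 10.4 FPKM in saline 1, 2 and 3 and 40.8, 42.7 and 43.0 FPKM in YQSHJD 1, 2 and 3. The groups were far apart and the spread within each was small, on 369 to 453 reads a library with saline and 1349 to 1583 with YQSHJD. On the log2 scale it rose by 2.03, standard error 0.089 (limma adjusted p = 2.57e-06), the 22nd smallest p of all tested genes. Among protein-coding genes its level was above 81.5% of them with saline and above 95.5% with YQSHJD. Over 15 alternative settings the log2 difference lay between 1.74 (TPM rescaling, which moved the median of all tested genes to -0.29) and 2.23 (GC correction), and the largest adjusted p was 0.000206, without a filter on low values.

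The 5 protein-coding genes whose 6 library values followed CREB3L3 most closely were PLIN2, UNC93A, AKR1C2, FTL and MAT1A, out of 9571 candidates. Likeness was the Euclidean distance between log2(FPKM + 1) values taken relative to each gene's saline mean, and it was 0.216, 0.219, 0.244, 0.258 and 0.259 in that order. PLIN2 coats lipid droplets, MAT1A makes S-adenosylmethionine in liver, FTL is the ferritin light chain and AKR1C2 is an aldo-keto reductase. Their log2 differences ran from 1.91 for FTL to 2.14 for MAT1A, beside 2.03 for CREB3L3. Genes picked by this distance must differ by about as much as CREB3L3, so that closeness is no separate result. AKR1C2 and FTL have near-identical paralogs or pseudogenes, so their values are uncertain.

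FGF21 (ENSG00000105550, chromosome 19, positions 48755524 to 48758333), the fasting hormone made by liver, measured 1.02, 0.482 and 1.09 FPKM in saline 1 to 3. In YQSHJD 1 to 3 it measured 0.172, 0.124 and 0.107 FPKM. It was the only one of the 7 whose YQSHJD values all lay below its saline values, and it rested on few reads, 21, 10 and 24 with saline and 3, 2 and 2 with YQSHJD. The summed reads per depth were 6.47-fold higher with saline, with a 95% counting interval of 2.94 to 16.9 (exact binomial, counting error only). An exact two-sided permutation test of log2(FPKM + 1) gave p = 0.1, the smallest that 3 against 3 libraries allow. Fits across genes that did include FGF21 called it lower: the limma fit without a filter (log2 difference -0.70, adjusted p = 0.0376, where 5.08% of genes were called lower) and limma-voom on recovered reads. That voom fit took genes with at least 10 reads in at least 3 libraries, an alternative chosen after seeing the data. FGF21 met this rule only through its saline libraries, so its reads had to be lower with YQSHJD and the voom call is no support. The voom fit gave -2.42 with a standard error of 0.625 (adjusted p = 0.00569), and it called 19.7% of its 13792 genes higher and 19.5% lower. Leaving out any 1 library, with the same genes kept, the voom value lay between -2.77 and -2.21, with a largest adjusted p of 0.0303.

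ANGPTL4 (ENSG00000167772, chromosome 19, positions 8363289 to 8374370) encodes a secreted inhibitor of lipoprotein lipase that PPARA induces. Its level was 0.716, 0.552 and 0.592 FPKM in saline 1 to 3 and 2.79, 2.51 and 3.92 FPKM in YQSHJD 1 to 3. YQSHJD 3 was the highest library, and the lowest YQSHJD library was still above all saline libraries. The mean was 4.96-fold higher with YQSHJD, and reads numbered 21 to 27 a library with saline and 74 to 135 with YQSHJD. It rose by 1.32 on the log2 scale, standard error 0.141 (limma adjusted p = 0.000244). Since the pseudocount weighs on so low a gene, the value was 2.12 with a pseudocount of 0.1 and 2.23 with voom on reads, and it stayed called in all 14 alternatives that could test it. Most of these kept the filter that ANGPTL4 passed only through YQSHJD values. The limma fit without a filter also called it (adjusted p = 0.00426), where 6.04% of genes were called higher.

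PDK4 (ENSG00000004799, chromosome 7, positions 95583499 to 95596516) encodes a kinase that shuts the pyruvate dehydrogenase complex, sparing glucose in fasting. It measured 0.173, 0.143 and 0.201 FPKM in saline 1 to 3, and 0.205, 0.0738 and 0.285 FPKM in YQSHJD 1 to 3. The YQSHJD libraries held both the lowest and the highest of the 6 values, from 4, 12 and 18 reads in YQSHJD 2, 1 and 3 and 10 to 15 per saline library. No difference was detectable at this depth (log2 difference 0.01, exact permutation p = 0.8; voom -0.04 with a standard error of 0.528, adjusted p = 0.959). The ratio of summed reads per depth, YQSHJD over saline, was 1.12 with a 95% counting interval of 0.679 to 1.83. PDK4 lies within the antisense gene PDK4-AS1, which was at 0.00325 FPKM with saline and 0.0118 FPKM with YQSHJD.

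ACAT1 (ENSG00000075239, chromosome 11, positions 108116695 to 108147603) encodes the mitochondrial thiolase that joins acetyl-CoA units into acetoacetyl-CoA, and it also works in ketone and isoleucine breakdown. Saline 1 to 3 stood at 5.02, 5.59 and 5.96 FPKM and YQSHJD 1 to 3 at 13.1, 11.9 and 11.2 FPKM. The groups were well separated, on 449 to 573 reads a library with saline and 830 to 990 with YQSHJD, a 2.18-fold higher mean. The rise on the log2 scale was 1.00, standard error 0.101 (limma adjusted p = 0.000181), and it lay between 0.73 and 1.11 over 15 alternatives.

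BDH1 (ENSG00000161267, chromosome 3, positions 197509783 to 197573323) encodes the mitochondrial dehydrogenase that converts acetoacetate to 3-hydroxybutyrate and back. It measured 0.217, 0.198 and 0.217 FPKM in saline 1 to 3 and 0.433, 0.610 and 0.779 FPKM in YQSHJD 1 to 3. All YQSHJD libraries were above all saline libraries, and they differed more among themselves than the saline libraries did. The deposited gene length is 11814 bases, so these low FPKM still came from 36 to 42 reads a library with saline and 66 to 128 with YQSHJD. Summed reads per depth were 2.90-fold higher with YQSHJD, with a 95% counting interval of 2.33 to 3.64. The exact permutation test gave its smallest possible p, 0.1, and the limma fit without a filter did not call it (log2 difference 0.40, adjusted p = 0.0731), where 6.04% of genes were called higher. Voom on reads called it higher, at 1.46 with a standard error of 0.28 (adjusted p = 0.000619).

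FABP1 (ENSG00000163586, chromosome 2, positions 88122982 to 88128062) encodes the main fatty acid carrier of the hepatocyte cytosol. It measured 3.26, 3.61 and 4.47 FPKM in saline 1 to 3 and 6.13, 7.11 and 7.53 FPKM in YQSHJD 1 to 3. The highest saline library came nearer to the lowest YQSHJD library than for the other called genes, and the mean was 1.83-fold higher with YQSHJD. This was a rise of 0.73 on the log2 scale, standard error 0.123 (limma adjusted p = 0.00216), and 0.48 with an adjusted p of 0.0414 under TPM rescaling. Without YQSHJD 1, the log2 difference was 0.81 for FABP1, 2.05 for CREB3L3, 1.36 for ANGPTL4 and 0.94 for ACAT1.

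**Figure D2:**
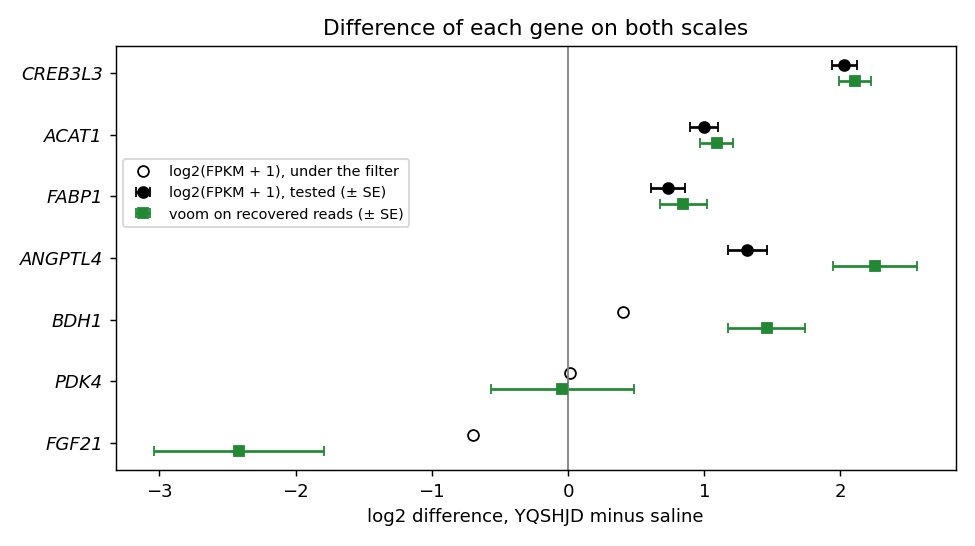
Log2 difference (x axis, YQSHJD minus saline) of each gene on the log2(FPKM + 1) scale (circles, filled where tested, with the standard error) and from voom on recovered reads (squares, with the standard error). The scales lie close together for CREB3L3, ACAT1 and FABP1, whereas ANGPTL4 goes from 1.32 to 2.25, BDH1 from 0.40 to 1.46 and FGF21 from -0.70 to -2.42.

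Ordered by mean FPKM with saline, the genes ran CREB3L3 (9.59 ± 0.74, SD, n = 3), ACAT1 (5.52 ± 0.47), FABP1 (3.78 ± 0.62), FGF21 (0.863 ± 0.33), ANGPTL4 (0.620 ± 0.086), BDH1 (0.211 ± 0.011) and PDK4 (0.173 ± 0.029). The ranges of neighbours in this order over the saline libraries did not overlap, except for FGF21 with ANGPTL4 and BDH1 with PDK4. With YQSHJD the order was CREB3L3 (42.2 ± 1.2), ACAT1 (12.04 ± 0.96), FABP1 (6.92 ± 0.72), ANGPTL4 (3.07 ± 0.75), BDH1 (0.608 ± 0.17), PDK4 (0.188 ± 0.11) and FGF21 (0.134 ± 0.034). There only PDK4 and FGF21 overlapped, so FGF21 went from the middle of the order to its end. FPKM is per length and allows this comparison between genes, as far as the deposited gene lengths hold.

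The rest of the ketone pathway was measured in 12 further genes, of which 6 passed the filter, 5 were higher and 0 lower with YQSHJD, with a median log2 difference of 0.53. Of all tested genes 23.3% were higher and 18.0% lower. Under TPM rescaling the list held 2 higher and 1 lower, beside 7.99% and 39.6% of all tested genes. SLC16A6, a transporter whose zebrafish counterpart exports ketone bodies from liver, rose from 5.09 ± 0.66 to 14.8 ± 1.20 FPKM (SD, n = 3 each; log2 difference 1.38, limma adjusted p = 5.48e-05). BDH2, a cytosolic short-chain dehydrogenase, rose by 0.55, and the cytosolic thiolase ACAT2 and synthase HMGCS1, which feed cholesterol synthesis, by 0.51 and 0.68, both calls lost under TPM rescaling (adjusted p = 0.32 and 0.0565). OXCT1, the transferase with which other organs burn ketone bodies, was listed at 0 in every library, which in this table need not mean absence, since some genes that all cells use, such as RPS9, are listed at 0 as well. AACS, which activates acetoacetate for lipid synthesis, stood at -0.14 and did not pass (adjusted p = 0.27).

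**Figure D3:**
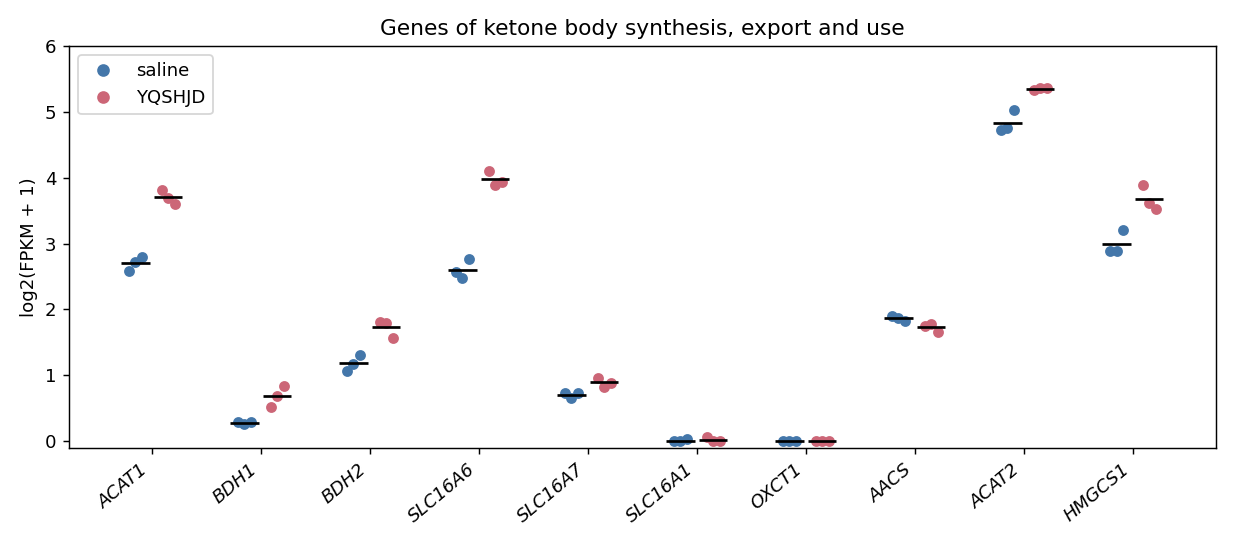
Level of 10 genes of ketone body synthesis, export and use as log2(FPKM + 1) in each saline and YQSHJD library, with the group mean as a line. ACAT1 and SLC16A6 lie higher with YQSHJD, while SLC16A1 and OXCT1 stay at or near 0 in both groups.

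PPARA itself rose from 3.31 ± 0.21 to 6.76 ± 0.70 FPKM (SD, n = 3 each; log2 difference 0.85, limma adjusted p = 0.00041). Its relatives went apart, PPARD falling by 0.71 and PPARG rising by 0.56. RXRA, the partner of PPARA, stood at 0.33 and did not pass (limma adjusted p = 0.0557), but was called with GC corrected (0.55, adjusted p = 0.000263) and with voom on the same genes (adjusted p = 0.0398). The coactivator PPARGC1A rose by 0.44, a call lost under TPM rescaling (adjusted p = 0.0984) and with GC corrected (adjusted p = 0.161). The corepressor NRIP1 rose by 0.56, a call also lost under TPM rescaling (adjusted p = 0.133). Of 20 tested genes among PPARA, its partners and its coregulators, 7 were higher and 6 lower, with a median of 0.08, where all tested genes had 23.3% higher and 18.0% lower. The 7 include PPARG and PPARGC1A, which passed the filter only through their YQSHJD values and so had to differ. Under TPM rescaling 2 were higher and 10 lower, beside 7.99% and 39.6% of all tested genes, and without saline 1 there were 3 higher and 2 lower.

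Known PPARA targets outside the 7 genes held 21 higher and 2 lower of 29 tested, with a median log2 difference of 0.70 against 0.04 for all tested genes. Of all tested genes 23.3% were higher and 18.0% lower. The counts in this list include CIDEC and PEX11A, which had to differ. Under TPM rescaling 15 were higher and 3 lower, beside 7.99% and 39.6% of all tested genes. CIDEC, a lipid droplet protein, had the largest difference, from 0.546 ± 0.13 to 7.95 ± 0.53 FPKM (log2 difference 2.54, adjusted p = 1.94e-06), and PLIN2 rose by 1.98. ACSL5, an acyl-CoA synthetase, rose by 1.498, the carnitine carrier SLC25A20 by 1.26 and the carnitine transferase CPT1A by 1.21. Their relatives CPT2 at 0.27 and ACSL3 at -0.21 did not pass (limma adjusted p = 0.0975 and 0.157). Nor did ACADS at 0.06, ACOT1 at -0.0025, ACOT2 at 0.09 and HILPDA at -0.0019. CYP4A11 and CYP4A22 were listed at 0 in every library. ECI1, an enoyl-CoA isomerase, and TXNIP, a brake on glucose uptake, fell by 0.78 and 0.76.

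CREB3L3 targets known mainly from mouse held 4 higher and 1 lower of 10 tested, with a median of 0.35. Of all tested genes 23.3% were higher and 18.0% lower. TPM rescaling left 2 higher (APOA4 and CIDEC) and 3 lower, beside 7.99% and 39.6% of all tested genes. GC correction gave 5 higher and 1 lower, beside 22.3% and 22.0%. APOA4, a lipoprotein of fat transport, rose from 3.76 ± 0.50 to 16.3 ± 1.20 FPKM (SD, n = 3 each; log2 difference 1.87, limma adjusted p = 1.1e-05). APOA5 rose by 0.42, lost under that rescaling (adjusted p = 0.718), and APOC2 stood at 0.29 and did not pass (adjusted p = 0.133), but was called with GC corrected (adjusted p = 0.0108). CIDEC is also in this list, is counted as higher and had to differ. FADS2, which entered the test only through its saline values, is among the 3 lower under TPM rescaling. SLC27A1, a fatty acid transporter, fell by 1.17. Among the CREB3 family and the proteases that free it, 3 were higher and 2 lower of 9 tested, and 1 was higher and 3 lower under TPM rescaling, counts near the shares of all tested genes in both cases. MBTPS1 fell from 15.9 ± 0.999 to 10.3 ± 0.43 FPKM (log2 difference -0.58, adjusted p = 0.00148), and MBTPS2 stood at 0.28 and did not pass (adjusted p = 0.0817). CREB3L4 fell by 0.63 and the cAMP-responsive modulator CREM rose by 0.64.

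For the FGF21 receptors 1 of 5 tested genes was higher and 3 were lower, with a median of -0.55. Of all tested genes 23.3% were higher and 18.0% lower. The 1 higher was KLB, the coreceptor that FGF21 needs, from 0.424 ± 0.087 to 1.20 ± 0.092 FPKM (log2 difference 0.63, limma adjusted p = 0.00298). KLB passed the filter only through its YQSHJD values and so had to differ. FGFR1, FGFR3 and FGFR4 fell by 0.71, 0.69 and 0.55. Among ANGPTL proteins and lipases 1 was higher and 5 lower of 7 tested, with a median of -0.63. TPM rescaling gave 0 higher and 5 lower, beside 7.99% and 39.6% of all tested genes. GC correction gave 2 higher and 5 lower, beside 22.3% and 22.0%. ANGPTL8, a feeding-induced secreted protein, fell from 263 ± 9.95 to 85.3 ± 26.6 FPKM (log2 difference -1.67, adjusted p = 0.00129), opposite to ANGPTL4, and FURIN, a protease that cleaves ANGPTL proteins, fell by 1.48. ANGPTL1 fell by 0.72, and LPL, the lipase that ANGPTL4 inhibits, was listed at 0 in every library.

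Around PDK4, the pyruvate dehydrogenase complex and its regulators held 9 higher and 0 lower of 11 tested, with a median of 0.35. This count depended on processing, with 1 higher and 2 lower under TPM rescaling, 3 higher and 0 lower after GC correction and 5 higher without saline 1. Of all tested genes 23.3% were higher in the main fit, 7.99% under TPM rescaling, 22.3% after GC correction and 14.5% without saline 1. The higher counts under TPM rescaling and after GC correction were near these shares. Lower were 18.0% of all tested genes in the main fit, 39.6% under TPM rescaling and 22.0% after GC correction. DLD, the shared dehydrogenase subunit, rose by 0.78, and the mitochondrial pyruvate carrier subunits MPC1 and MPC2 by 0.62 and 0.55, the last pair lost under TPM rescaling (adjusted p = 0.149 and 0.202) and after GC correction (0.077 and 0.064). PDK2 measured 5.22 ± 0.069 and 5.23 ± 0.27 FPKM (log2 difference 0.00, limma adjusted p = 0.991), while PDK1 at 0.254 ± 0.023 and 0.361 ± 0.061 FPKM and PDK3 at 0.430 ± 0.079 and 0.372 ± 0.010 FPKM were under the filter. Of the other fatty acid binding proteins and carriers 4 were tested and 2 rose: SCP2, a sterol carrier protein, by 0.91 and ACBD3 by 0.44, the latter lost under TPM rescaling (adjusted p = 0.465) and with GC corrected (adjusted p = 0.0794). FABP5 stood at 0.25 and did not pass (adjusted p = 0.0857).

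**Figure D4:**
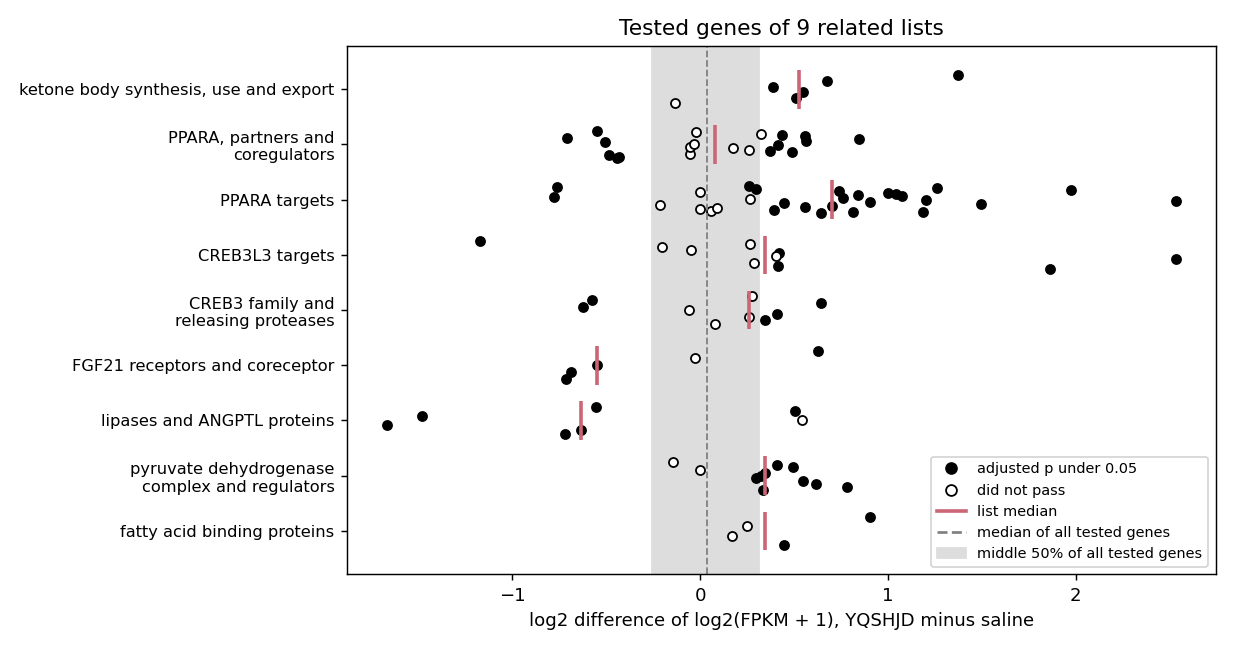
Log2 difference (x axis, YQSHJD minus saline) of each tested gene in 9 related lists, filled where the adjusted p was under 0.05, with list medians as bars. The grey band from -0.26 to 0.31 holds the middle 50% of all tested genes, and the PPARA targets have the highest list median, 0.70.

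Of the 138 genes in the 9 lists, 100 were tested, 52 were higher and 19 lower with YQSHJD, beside 23.3% and 18.0% of all tested genes. Under TPM rescaling 24 were higher and 30 lower, beside 7.99% and 39.6%. These counts include the listed genes that entered the test only through the group where they were high. Some of these genes overlap another gene, and whether counting used strand is unknown here, so reads may be shared, among others for CREM with CUL2, SLC16A6 with ARSG, BDH2 with SLC9B2, ACAT2 with TCP1, ACSL5 with ZDHHC6, ANGPTL8 with DOCK6, ANGPTL1 with RALGPS2, MPC2 with DCAF6, CREB3L4 with JTB and DLD with LAMB1. The only genes overlapping any of the 7 were noncoding, PDK4-AS1 and a pair antisense to ACAT1 at 0 to 0.0211 FPKM.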

How the data were processed

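Libraries of polyadenylated RNA were made with an Illumina TruSeq kit, per the labels' protocols. The values are FPKM as deposited by the authors in 1 table with gene names, coordinates and lengths (in bases, as deposited). The submitters' processing notes name CASAVA 2.19, while aligner, counter, use of strand, genome build and annotation are named in no source used here. The table also held 6 columns of values that match no sample of the series and were not used, and 1 empty line. Reads were recovered as FPKM times gene length over the value of 1 read, and 100% of values came out whole to within 0.01 reads.

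Genes reaching 1 FPKM in 3 or more libraries were tested with limma 3.58.1 in R 4.3.3 on log2(FPKM + 1), with trend and robust prior, two-sided, and Benjamini-Hochberg adjustment over all tested genes. Genes under the filter got an exact permutation test over the 6 libraries. The test and the voom fit were tested on simulated data. The members and lists were chosen with earlier results of these data known. Named were all 7 genes, a fixed set of related genes whatever their values (PPARA, RXRA, LPL and others), the 3 largest differences in each list and the 5 genes nearest to CREB3L3; other genes named were chosen after their values were seen, and some genes of the rule are not reported here. The alternatives were another pseudocount, filters, scalings, a replicate block, voom, GC correction (loess span 0.5, GC known for 98.6% of tested genes) and leaving out each library. Replicate numbers were not taken to pair the samples. Read intervals cover counting error only.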

Additional observations from a re-analysis of the deposited data

How the results depend on the processing

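Among the 7 genes, the calls of CREB3L3, ANGPTL4, ACAT1 and FABP1 kept their direction and stayed called under all alternatives that could test them. ANGPTL4 does not reach the filter of 5 FPKM, and it entered most of these tests only through its YQSHJD values, so there it had to differ. PDK4, near 0, changed sign under TPM rescaling (-0.085), after GC correction (-0.24) and with voom at a minimum of 10 reads (-0.041), and ranged from -0.044 to 0.086 when 1 library was left out. FGF21 was called at -0.70 with no filter and at -2.42 with that voom fit, whose read minimum it met only through its saline libraries. BDH1 was called at 1.46 in that fit, which was chosen after seeing the data. The cause was not tested. Counts of calls over all genes, 2559 higher and 1977 lower, became 876 and 4342 under TPM rescaling, which moved the median of all tested genes to -0.29, and 1606 were higher with no filter. Leaving out 1 library gave 1588 to 2675 higher and 1217 to 2188 lower, lowest without saline 1. Genes of the 9 lists, 52 higher and 19 lower, became 24 and 30 under TPM rescaling.

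Same-numbered libraries did not deviate together (correlations of -0.245, -0.112 and -0.0402 over tested genes), so the numbers are not taken to pair samples. With the replicate number as a block 2018 genes were higher and 1689 lower, and CREB3L3 stayed at 2.03, ANGPTL4 at 1.32, ACAT1 at 1.00 and FABP1 at 0.73. Genes with few reads, FGF21 and PDK4 above all, are limited by depth.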

Other observations

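Low genes of the same lists that the filter left untested also held differences in reads, and they were picked after their values were seen. VNN1, a pantetheinase that PPARA induces, had 0, 0 and 1 reads in the saline libraries and 11, 7 and 9 with YQSHJD, a ratio of 32.8 with a 95% counting interval of 5.40 to 1340. FGF19, the gut hormone of the same endocrine family as FGF21, had 19, 29 and 13 reads with saline and 0, 4 and 4 with YQSHJD. Its summed reads per depth were 6.28-fold higher with saline (interval 3.00 to 15.2), on only 8 reads with YQSHJD. The groups did not overlap for FGF19, nor for 34.8% of the untested genes with at least 10 reads in at least 3 libraries. FGF19 met that rule only through its saline libraries, so its reads had to separate and the share is no yardstick for it. VNN1 had fewer reads than the rule asks.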
